A study of Mus musculus with 54 samples.

Results

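Microglia that had taken up alpha-synuclein (aSyn) were followed between 15 and 150 min of co-culture with microglia that had received none. The comparison rests on 8 of the series' 54 libraries, 4 labelled Donors_15min and 4 labelled Donors_150min, chosen by that group label and paired by the replicate number that closes their titles, called experiment 1 to 4 here. No label calls this number an experiment, but libraries that share it share a passage number, and their values deviated together. The cells were primary microglia of neonatal C57BL/6 mice. Cells of 2 brains shared a flask, grew for 7 to 10 days in serum and L929 cell supernatant, and were detached by shaking from the astrocytes beneath them. Donor cells were exposed to 1 µM aSyn carrying the fluorophore Atto-488 for 14 h. Acceptor cells were dyed with CellTracer Violet for 15 min and received no aSyn. Both populations were mixed, kept together for the stated time and separated again by flow cytometry. The 15 and the 150 min donors thus both carry aSyn, and the contrast is one of time: time in co-culture and time since the aSyn was given cannot be told apart. Experiment 1 used cells of passage 3, experiment 2 of passage 1, and experiments 3 and 4 of passage 2.

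aSyn is a neuronal protein that aggregates in Parkinson's disease, and microglia, the resident macrophages of the brain, take it up and degrade it in lysosomes. Immediate early genes, such as those of the Fos, Jun, Egr and Nr4a families, encode transcription factors whose mRNAs appear within minutes of a stimulus, without new protein synthesis, and decay quickly. Several genes described here act as brakes on signalling: Dusp1 is a phosphatase that switches off p38 and JNK kinases, and Klf2 is a zinc finger factor that restrains inflammatory activation of myeloid cells.

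The 8 libraries held 11429307 to 15537493 counts each. Csf1r, the receptor that keeps microglia alive, was at 561 to 2257 CPM (counts-per-million, scaled by TMM). The homeostatic markers P2ry12 and Tmem119 were low, at 2.55 to 10.1 and 2.46 to 10.6 CPM, and Siglech had no count in 6 of the 8 libraries. Experiment 4, whose libraries carry a separate run of facility numbers, stood apart at both times. Cx3cr1, the fractalkine receptor, was at 18.5 and 25.2 CPM there against 151 to 472 CPM in experiments 1 to 3, and the ribosomal precursor Rn45s took 13.4% to 14.5% of its counts against 3.47% to 8.6%. The labels name no separate animals or flasks within an experiment, so p-values measure spread between libraries. In the main fit that spread was estimated over all 14 groups of the series, with differences between experiments taken out.

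Donor cells had less mRNA of 4 genes at 150 than at 15 min: Fbxo32, Cxcr4, Dusp1 and Klf2, each 2.36 to 3.37 times lower. No gene passed the test in the other direction. The 4 genes are 0.0304% of the 13169 genes tested, by edgeR's quasi-likelihood test with the experiment as a block and a Benjamini-Hochberg adjusted p under 0.05. At an unadjusted p under 0.05 there were 287 lower genes (2.18%) and 298 higher genes (2.26%). In each of the 4 genes the highest 150 min library lay below the lowest 15 min library, which held for 96 of all genes tested (0.729%). In bulk RNA, fewer cells of a type and less RNA per cell cannot be told apart.

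Fbxo32, also called atrogin-1, is the substrate-binding subunit of a ubiquitin ligase and a classical target of FOXO factors. It was at 30.1, 20.99, 19.7 and 29.3 CPM at 15 min in experiments 1 to 4 and at 9.96, 6.45, 7.93 and 8.61 CPM at 150 min. All 4 experiments showed a drop of similar size, and the groups did not overlap. The test gave a log2 fold change of -1.59 (SE 0.24, adjusted p = 0.00108). Fbxo32 lies on the minus strand of chromosome 15 from 58175879 to 58214932 (mm10), where the gene model Gm15943 overlaps it on the other strand.

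Cxcr4 is the receptor of the chemokine CXCL12 and steers the migration of leukocytes and microglia. Its level was 224, 219, 216 and 128 CPM at 15 min and 83.5, 95.02, 93.3 and 61.7 CPM at 150 min. Experiment 4 was lower than the others at both times and dropped in the same way. The test gave a log2 fold change of -1.24 (SE 0.22, adjusted p = 0.00824). The gene occupies chromosome 1 from 128588199 to 128592293 on the minus strand.

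Klf2 was at 342, 116, 166 and 129 CPM at 15 min and at 45.3, 25.1, 82.4 and 56.3 CPM at 150 min. The drop was larger in experiments 1 and 2 (log2 difference of -2.91 and -2.19) than in experiments 3 and 4 (-1.01 and -1.20). Over the 4 experiments the log2 fold change was -1.75 (SE 0.33, adjusted p = 0.0159). Klf2 lies on chromosome 8 from 72319033 to 72321656 on the plus strand.

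Dusp1 was at 555, 512, 273 and 578 CPM at 15 min and at 166, 188, 140.4 and 256.7 CPM at 150 min. The smallest drop was in experiment 3, whose 15 min library was the lowest of its group. Over the 4 experiments the log2 fold change was -1.35 (SE 0.25, adjusted p = 0.0114). The annotated gene spans chromosome 17 from 26505590 to 26562128 on the minus strand and is overlapped there by other genes, among them Ergic1 on the opposite strand.

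**Figure D1:**
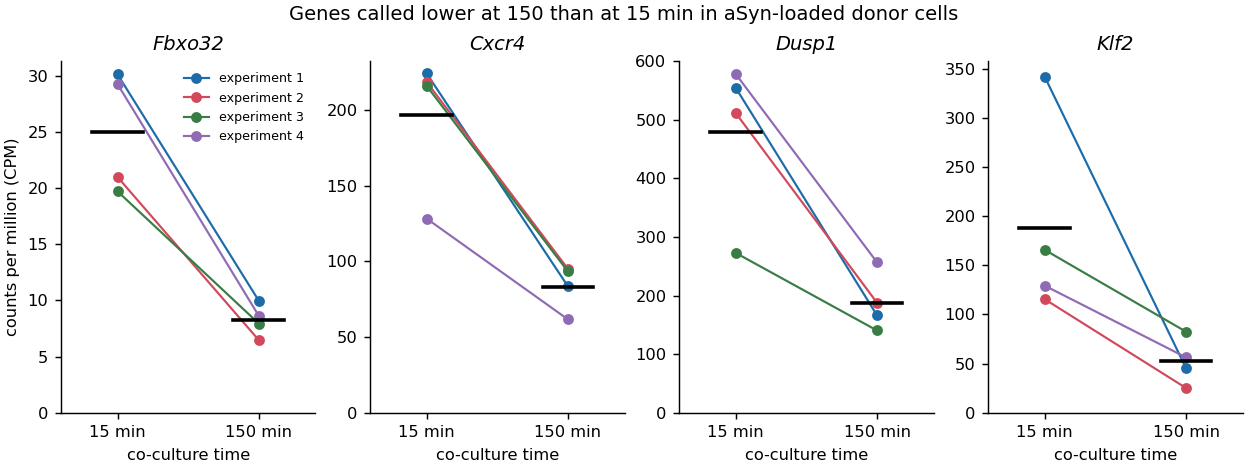
CPM (TMM scaled counts-per-million, vertical axis from 0) of the 4 genes called in donor cells at 15 and 150 min. Each coloured line joins the 15 and 150 min libraries of 1 experiment and black bars are group means. Every line slopes down, and in each gene every 150 min library lies below every 15 min library.

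The calls depended on the fit and on single experiments. Without the block only Cxcr4 was called (adjusted p = 0.0239, 0.00759% of the genes tested), while Fbxo32, Klf2 and Dusp1 had adjusted p = 0.322, 0.25 and 0.714. Leaving out experiment 1 left no call, with adjusted p = 0.126 for Fbxo32 and 0.744 to 1 for the other 3 genes. Leaving out experiment 2 left none either, with adjusted p from 0.0565 to 0.123. Leaving out experiment 3 left Fbxo32 (adjusted p = 0.0476) and called Ell2 higher. Without experiment 4, 13 genes were called: the 4 above (adjusted p from 0.000323 to 0.0127), the lower genes Fosb, Ier2, Ier3, Osm, Rhob, Socs3, Hilpda and Rassf3, and the higher gene Gpr85. Over all these settings the log2 fold change stayed between -1.69 and -1.54 for Fbxo32, -1.28 and -1.17 for Cxcr4, -1.46 and -1.21 for Dusp1, and -2.05 and -1.33 for Klf2. When donor groups were fitted alone, 46 genes were called lower (0.367% of 12525 tested) and 5 higher. DESeq2 called 11 genes lower (0.0835%) and 1 higher.

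RefSeq promoter windows (GRCm38.p6) were at hand for Cxcr4, Dusp1 and Klf2, and the bases from -250 to -51 relative to the start site are shown because these genes were lower together. The stretches are chr1:128592350-128592549 on the minus strand, chr17:26508523-26508722 on the minus strand and chr8:72318812-72319011 on the plus strand. Both strands were searched for the cyclic AMP response element TGACGTCA, its core TGACG, the AP-1 site TGANTCA, the FOXO site GTAAACA, the GC box GGGCGG, the E-box CACGTG, the CArG box and the NF-kB site. Every full element holds the core on both strands. Capitals mark each match, on either strand.
Cxcr4: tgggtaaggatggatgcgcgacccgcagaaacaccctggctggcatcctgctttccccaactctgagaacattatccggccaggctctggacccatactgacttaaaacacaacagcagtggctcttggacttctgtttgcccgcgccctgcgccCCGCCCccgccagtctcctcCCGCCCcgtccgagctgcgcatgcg
Dusp1: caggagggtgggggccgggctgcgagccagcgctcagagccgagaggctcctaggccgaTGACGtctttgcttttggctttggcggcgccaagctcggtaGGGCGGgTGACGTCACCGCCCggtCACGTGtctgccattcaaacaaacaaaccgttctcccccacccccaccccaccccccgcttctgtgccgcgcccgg
Klf2: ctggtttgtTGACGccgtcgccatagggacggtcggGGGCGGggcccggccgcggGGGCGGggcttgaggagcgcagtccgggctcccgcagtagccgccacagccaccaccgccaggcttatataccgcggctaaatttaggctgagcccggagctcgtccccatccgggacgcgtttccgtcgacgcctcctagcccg

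The Dusp1 stretch held the full cyclic AMP response element at positions -143 to -136, with a GC box on either side of it (-150 to -145 and -135 to -130), and an E-box at -126 to -121. In the whole windows, which run from -250 to 50, the full element occurred in 3.6% of the 10420 tested genes that have a promoter entry and the E-box in 11.7%. The core was matched in Dusp1 and Klf2 and in 34.9% of all windows, and the GC box in all 3 genes and in 67.3% of all. The AP-1 site, the FOXO site, the CArG box and the NF-kB site had no match in the 3 windows and occurred in 6.39%, 3.21%, 1.59% and 6.37% of all.

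Donor libraries of the other times showed the course of the 4 genes. Klf2 averaged 176 ± 79.2 CPM in the group labelled Donors_0min (SD, n = 3), 188 ± 105 at 15 min (n = 4), 193 ± 101 at 30 min (n = 4), 149 ± 18.9 at 60 min (n = 3), 52.3 ± 23.9 at 150 min (n = 4) and 21.3 ± 10.2 at 300 min (n = 4). The ranges of mean and SD from 0 to 60 min overlapped, and untreated microglia, kept without aSyn, were at 21.5 ± 9.24 CPM (n = 4). Fbxo32 followed the same course, with 21.97 ± 4.81, 25.03 ± 5.43, 24.5 ± 7.68, 20.8 ± 6.09, 8.24 ± 1.46 and 5.78 ± 0.718 CPM from 0 to 300 min and 6.14 ± 1.45 CPM in untreated cells. Cxcr4 was at 227.99 ± 29.7 CPM at 0 min and stood at 197 ± 45.8, 181 ± 40.8, 149 ± 37.1, 83.4 ± 15.3 and 72.03 ± 10.2 CPM at the later times, against 70.6 ± 18.8 CPM untreated. Dusp1 was at 380.2 ± 73.7, 479 ± 140.4, 429.7 ± 139, 312 ± 113, 188 ± 49.9 and 149 ± 37.4 CPM, against 128 ± 69.4 CPM untreated. The 0 min group holds no library of experiment 4 and the 60 min group none of experiment 2, so neighbouring means are not over the same experiments. For all 4 genes the 150 and 300 min means were the lowest of the 6 donor times, the 150 min value was below the 60 min value in each of the 3 experiments that have both, and the 300 min mean was within 1 SD of the untreated one. Single steps were not tested.

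**Figure D2:**
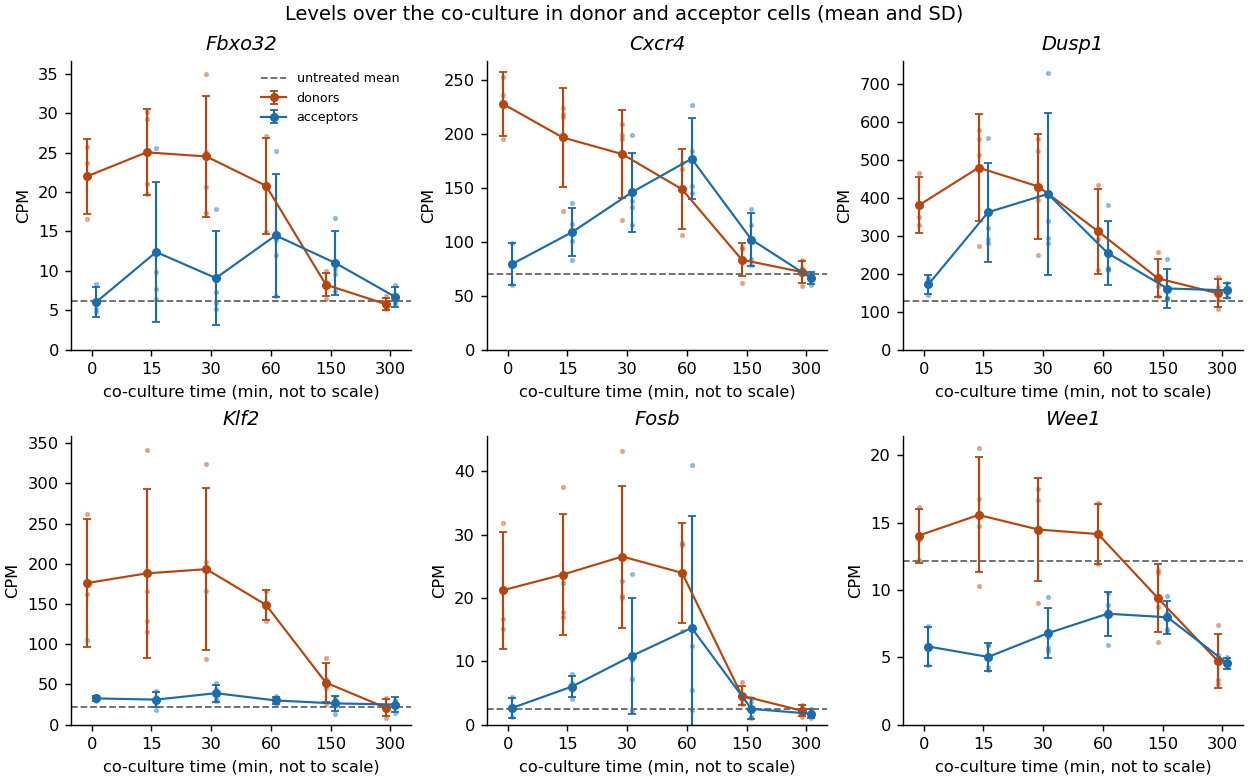
Mean and SD of CPM (vertical axis from 0) at each co-culture time (horizontal axis, equally spaced) for donors (orange) and acceptors (blue), with single libraries as small points and the untreated mean as a dashed line. Donor Klf2 goes from 188 ± 105 CPM at 15 min to 52.3 ± 23.9 CPM at 150 min, and the acceptor means lie between 25.1 and 39.2 CPM.

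Immediate early genes had low values at 150 min as a group, although none of them passed the adjusted test on its own. Of 26 tested members, 15 had an unadjusted p under 0.05 with lower values, against 2.18% of all genes, and 1 (Myc) with higher values. In 18 of the 26 the 150 min library was the lower one in all 4 pairs, against 7.48% of all genes. The median log2 fold change of the list was -0.76, against 0.01 over all genes tested, and the list's median in experiments 1 to 4 was -1.05, -0.69, -0.53 and -0.42. Without the block 10 members had an unadjusted p under 0.05 with lower values, against 0.813% of all genes in that fit. Without experiment 4 there were 18, against 3.33% of all, and without experiment 1 there were 8, against 1.41% of all. In the fit without experiment 4, Fosb, Ier2 and Ier3 were called, among 13 calls in all 13079 genes tested.

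The Fos family provides 1 partner of the AP-1 dimer, and none of the members described here passed the adjusted test. Fosb was at 37.6, 22.4, 17.8 and 16.97 CPM at 15 min and at 3.26, 4.18, 4.09 and 6.79 CPM at 150 min. Every 150 min library lay below every 15 min library (log2 fold change -2.37, SE 0.53, adjusted p = 0.102). Its donor means were 21.2 ± 9.25 CPM at 0 min, 26.6 ± 11.2 at 30 min, 23.97 ± 7.88 at 60 min and 2.22 ± 0.884 at 300 min, so the low level of 150 min was still there later. Fos itself was at 614, 480.4, 238.2 and 219 CPM and then at 257.4, 207, 146 and 128 CPM. It was lower at 150 min in each pair, but the groups overlapped, with low 15 min values in experiments 3 and 4 (-1.05, SE 0.35, adjusted p = 0.687). Fosl2 stood at 45.5, 42.1, 91.6 and 36.6 CPM against 20.5, 18.9, 35.3 and 27.3 CPM, without overlap (-1.11, SE 0.48, adjusted p = 1).

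Among the Jun proteins, the partners of Fos, Jun was at 118, 98.4, 52.2 and 144 CPM at 15 min and at 58.3, 58.8, 49.4 and 59.4 CPM at 150 min. The 150 min libraries were close together, and experiment 3 differed little between the times (-0.77, SE 0.19, adjusted p = 0.182). Junb was at 493, 421, 459 and 306 CPM and then at 291, 277, 226.01 and 205 CPM, without overlap (-0.74, SE 0.31, adjusted p = 0.976). DESeq2 called Jun and Fosb lower (adjusted p = 0.0494 and 0.0296).

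The Egr zinc finger factors and the Nr4a orphan nuclear receptors, induced by growth factor and calcium signals, differed strongly between experiments. Egr1 was at 116, 106, 16.2 and 4.04 CPM at 15 min and at 7.78, 25.8, 11.2 and 2.55 CPM at 150 min. It was high in the 15 min libraries of experiments 1 and 2 and at 25.8 CPM or less in the other 6 (-2.30, SE 0.68, adjusted p = 0.524). Without experiment 1 its log2 fold change was -1.43. Egr3 had 34.5, 12.7, 3.03 and 1.35 CPM against 0.837, 2.03, 0.961 and 0 CPM (-3.32, SE 1.02, adjusted p = 0.563). In these libraries 3 counts correspond to 0.193 to 0.262 CPM, so the last values of Egr3 are near the limit. Nr4a1 was at 58.96, 27.6, 34.6 and 2.78 CPM and then at 10.2, 5.84, 12.02 and 7.59 CPM. Experiment 4 went the other way for Nr4a1, from a low start (-1.90, SE 0.74, adjusted p = 0.901), and limma-voom gave -1.23. Nr4a2 was at 2.98, 5.42, 15.8 and 9.83 CPM and then at 1.34, 2.27, 4.41 and 5.401 CPM, lower in all 4 pairs (-1.41, SE 0.60, adjusted p = 1).

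Smaller immediate early genes are known as regulators of growth arrest and survival. Ier2 had 66.7, 71.9, 30.5 and 20.1 CPM against 15.6, 25.9, 25.9 and 22.1 CPM, lower in 3 of 4 pairs. Ier3, an apoptosis regulator, had 196, 113, 90.8 and 366 CPM against 32.3, 43.4, 72.99 and 306 CPM, lower in all 4, with experiment 4 high at both times. Btg2, an antiproliferative gene, had 184, 193, 68.6 and 52.3 CPM against 68.9, 77.99, 45.9 and 37.9 CPM, again lower in all 4. Their log2 fold changes were -1.06, -1.16 and -1.04, each with an adjusted p of 0.524. Without experiment 1 those of Ier2 and Ier3 were -0.66 and -0.67, and without the block that of Ier3 was -0.75. Myc, which drives growth, was 1 of the 4 members with a positive log2 fold change, at 2.28, 1.197, 0.798 and 1.27 CPM and then 4.18, 2.03, 1.52 and 3.65 CPM, higher in all 4 pairs (1.06, SE 0.46, adjusted p = 1). When donor groups were fitted alone, 11 of the 26 were called lower, against 0.367% of all genes in that fit. They were Fos, Fosb, Fosl2, Junb, Egr1, Egr3, Nr4a2, Btg2, Ier3, Ier5 and Bhlhe40. Apart from Fos, Fosb and Nr4a1, the members named here were chosen after their values were seen.

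**Figure D3:**
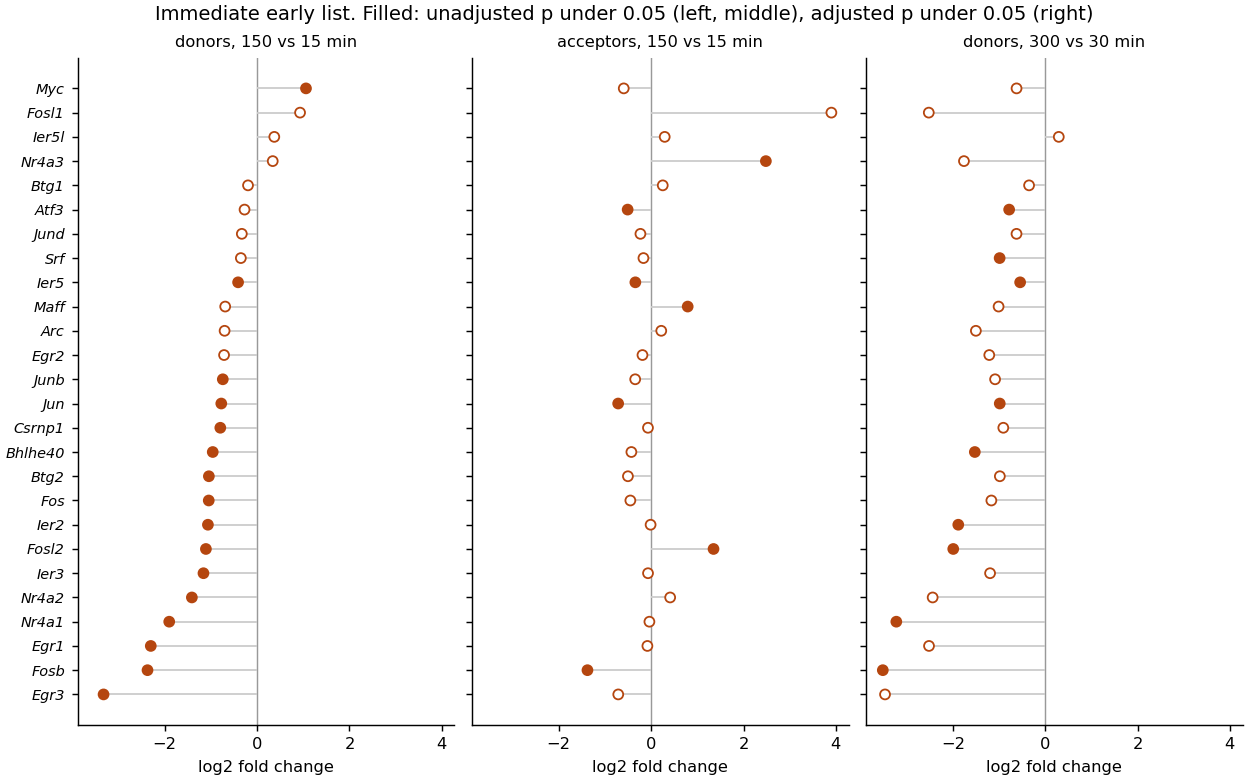
Log2 fold changes (horizontal axis) of the 26 tested immediate early genes in donors at 150 against 15 min, in acceptors at the same times, and in donors at 300 against 30 min. Filled points have an unadjusted p under 0.05 in the left and middle panels and an adjusted p under 0.05 in the right one. Of the 26 points, 22 lie left of 0 in donors and 18 in acceptors.

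Kruppel-like factors are zinc finger proteins that bind GC-rich promoters. Of 10 tested, 1 was called (Klf2), against 0.0304% of all genes. An unadjusted p under 0.05 with lower values was found in 4, Klf2 included, against 2.18% of all genes. Klf4, a factor of monocyte differentiation, was at 47.3, 40.7, 39.2 and 42.4 CPM at 15 min and at 19.2, 15.6, 27.7 and 34.4 CPM at 150 min, with no overlap (-0.83, SE 0.30, adjusted p = 0.823). Klf6 was at 712, 697, 321 and 882 CPM against 389, 403, 328 and 544 CPM, lower in 3 of 4 pairs (-0.58, SE 0.14, adjusted p = 0.182). Klf11 had 8.23, 5.63, 7.26 and 2.86 CPM against 3.51, 3.75, 4.25 and 3.65 CPM, also lower in 3 of 4. The list's median was -0.11.

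Dusp1 was the 1 called gene of 18 tested inhibitors of MAP kinase signalling, against 0.0304% of all genes. The median of these inhibitors was -0.05. Dusp10, which acts on the same kinases, had 0.964, 0.775, 1.76 and 1.19 CPM against 0.502, 0.615, 1.04 and 0.584 CPM (-0.79, SE 0.53, adjusted p = 1). Spry4 and Spred2, inhibitors of Ras signalling, were near the detection limit, with 0, 0, 0.239 and 0 CPM against 0.335, 0, 0.721 and 0 CPM for Spry4 and 0.0876, 0.211, 0.639 and 1.74 CPM against 0.335, 0, 0.0801 and 0.292 CPM for Spred2. The list's median was -0.23 without experiment 3 and 0.04 without experiment 4.

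Fbxo32 was likewise the 1 called gene of 17 tested genes linked to FOXO factors and growth factor withdrawal, against 0.0304% of all genes. The median of this list was -0.15. Irs2, an adaptor of the insulin receptor, was at 19.8, 20.3, 19.2 and 39.2 CPM and then at 10.5, 12.1, 12.7 and 8.25 CPM, without overlap (-1.01, SE 0.34, adjusted p = 0.687). Bcl6, a transcriptional repressor, had 96.1, 114, 98.8 and 89.4 CPM against 149.5, 169, 97.02 and 124 CPM. Txnip, an inhibitor of thioredoxin, had 103, 147, 89.7 and 80.5 CPM against 182, 215, 86.05 and 91.2 CPM. Both were higher in 3 of 4 pairs and lay in the other direction from Fbxo32 (log2 fold change 0.42 and 0.36, adjusted p = 0.426 and 1).

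Cxcr4 was the 1 called member of 22 chemokine and chemoattractant receptors, against 0.0304% of all genes, and the list's median had the other sign, 0.10. S1pr2, a receptor for sphingosine phosphate, was at 98.5, 118, 86.6 and 107 CPM and then at 144, 152, 80.2 and 129 CPM (0.28, SE 0.14, adjusted p = 1). Ccr2, the receptor of CCL2, was at 3.68, 1.34, 0 and 0.238 CPM against 6.36, 1.35, 0.881 and 1.09 CPM. Ccr1 was at 7.36, 4.01, 8.78 and 21.97 CPM against 9.45, 7.25, 13.1 and 29.5 CPM. Ccr1 and Ccr2 were higher in all 4 pairs, and neither was called (log2 fold change 0.53 and 1.10, adjusted p = 1 for both).

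TGF-beta signalling keeps microglia in their resting state, and its feedback repressors Ski, Skil and Tgif1 are part of the pathway. Of 23 tested pathway genes, none was called, 5 had an unadjusted p under 0.05 with lower values (against 2.18% of all genes), and 7 were lower in all 4 pairs (against 7.48%). Tgif1 was at 125, 150.4, 167 and 123 CPM and then at 81.4, 115, 95.7 and 89.6 CPM, without overlap (-0.56, SE 0.16, adjusted p = 0.437). Skil was at 97.4, 112, 125 and 124 CPM and then at 76.9, 68.9, 95.7 and 95.1 CPM, also without overlap (-0.45, SE 0.20, adjusted p = 1). Ski was lower in all 4 pairs with a smaller difference (-0.27, SE 0.09, adjusted p = 0.687). The list's median was -0.13.

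Glucocorticoid and clock genes gave no call either, and 5 of 19 had an unadjusted p under 0.05 with lower values, against 2.18% of all genes. Per1, a clock gene that also responds to cyclic AMP and glucocorticoids, was at 19.97, 26.5, 28.2 and 21.97 CPM and then at 10.04, 12.5, 15.1 and 16.6 CPM, without overlap (-0.85, SE 0.20, adjusted p = 0.157). Sgk1, a kinase induced by glucocorticoids, was at 175, 225.7, 408 and 247.7 CPM and then at 124, 159, 263.02 and 175 CPM, lower in all 4 pairs (-0.54, SE 0.18, adjusted p = 0.679). Tsc22d3, which encodes the glucocorticoid-induced leucine zipper, had 100.1, 129, 66.5 and 89.3 CPM against 52.8, 86.7, 59.5 and 75.2 CPM (-0.45, SE 0.19, adjusted p = 1). The clock repressor Nr1d1 had 2.89, 3.099, 4.95 and 7.296 CPM against 1.42, 0.922, 3.04 and 4.09 CPM (-1.02, SE 0.39, adjusted p = 0.901). The list's median was -0.13.

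Cytokines and chemokines gave no call. Osm, a cytokine of the interleukin 6 family, was at 46.6, 47.5, 40.6 and 38.4 CPM and then at 12.6, 15.2, 18.3 and 20.1 CPM. The groups were far apart (-1.44, SE 0.40, adjusted p = 0.426). Socs3, the feedback inhibitor of cytokine receptors, was at 40.3, 26.1, 31.8 and 233.01 CPM against 7.697, 9.03, 15.4 and 197 CPM, lower in all 4 pairs and several times higher in experiment 4 than in the others (-1.23, SE 0.42, adjusted p = 0.739). Without the block its log2 fold change was -0.53. Cxcl2, a neutrophil attractant, was at 539.6, 623, 251.97 and 1249 CPM and then at 145, 288, 212 and 810.1 CPM (-1.0, SE 0.43, adjusted p = 1). Tnf, the main early inflammatory cytokine, had 51.2, 76.3, 30.5 and 62.3 CPM against 30.7, 47.1, 28.8 and 43.3 CPM (-0.55, SE 0.32, adjusted p = 1). The medians of 20 cytokines and 20 chemokines were -0.06 and -0.04. Of 16 genes for mRNA decay 2 had an unadjusted p under 0.05 with lower values, against 2.18% of all genes. They were Zfp36, the factor that destabilizes Tnf mRNA (-0.74, SE 0.30), and Zfp36l2 (-0.59, SE 0.24). Of 15 NF-kB subunits and inhibitors Tnip3 alone had an unadjusted p under 0.05 (0.34, SE 0.15), against 4.44% of all genes in either direction.

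Single members of other lists had low values at 150 min while their lists' medians were near 0. Rhob, a small GTPase of endosomes and actin, was at 265.6, 118, 166 and 106 CPM and then at 81.7, 49.1, 59.6 and 75.6 CPM, without overlap (-1.28, SE 0.32, adjusted p = 0.219). Its list, 36 genes of tunnelling nanotubes, filopodia and their control, had a median of 0.04, and Enah, an actin regulator of filopodia, was higher in all 4 pairs (1.32, SE 0.51, adjusted p = 0.901). Ppp1r15a, which ends the translation block of the stress response, was at 69.5, 82.4, 51.7 and 92.7 CPM and then at 33.5, 42.6, 40.5 and 57.2 CPM (-0.77, SE 0.18, adjusted p = 0.157). Ulk1, the kinase that starts autophagy, was at 53.4, 49.9, 45.5 and 33.2 CPM and then at 27.4, 34.7, 32.5 and 23.5 CPM (-0.60, SE 0.15, adjusted p = 0.254), and the 26 autophagy genes had a median of -0.02. Mdm2 and 1700017B05Rik are members of none of the lists. Mdm2, the ubiquitin ligase of p53, was at 355, 481, 309 and 387 CPM and then at 198, 349, 244.4 and 225.4 CPM, lower in all 4 pairs (-0.59, SE 0.14, adjusted p = 0.138). The uncharacterized 1700017B05Rik was at 61.1, 65.9, 75.8 and 95.8 CPM and then at 38.5, 40.9, 59.05 and 61.3 CPM, also lower in all 4 (-0.59, SE 0.13, adjusted p = 0.102).

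Genes that handle aSyn once it is inside the cell differed little. The 35 lysosome and cathepsin genes had a median of -0.03, with log2 fold changes from -0.24 to 0.08, and none had an unadjusted p under 0.05. Npc1, which exports cholesterol from lysosomes, was at 152, 118, 179 and 184 CPM against 161, 109.8, 153 and 153 CPM (-0.13, SE 0.10, adjusted p = 1). Of 22 scavenger, efferocytosis and Fc receptors 1 had an unadjusted p under 0.05, against 4.44% of all genes in either direction. This was the efferocytosis receptor Mertk, at 144, 223, 192 and 145 CPM against 84.2, 160.1, 175 and 113 CPM (-0.44, SE 0.15, adjusted p = 0.715). The 21 disease-associated microglia genes had a median of 0.05, with Cd63, a tetraspanin of late endosomes, at -0.27 (SE 0.18). The 19 homeostatic genes had a median of 0.03.

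Interferon-stimulated, antioxidant, LXR and cholesterol synthesis genes had medians of 0.10, -0.02, -0.03 and 0.08, and none of their members had an unadjusted p under 0.05. Examples are Stat2 of interferon signalling (0.19, SE 0.26), Osgin1 (-0.26, SE 0.22), the efflux transporter Abcg2 (0.25, SE 0.20) and the cholesterol enzyme Idi1 (0.55, SE 0.35). The 29 respiratory chain genes had a median of 0.07, and Ndufs4, a subunit of complex I, was at 54.1, 58.2, 55.1 and 58.7 CPM against 63.00, 67.3, 67.4 and 71.6 CPM. Those groups did not overlap, but the gene was not called (0.25, SE 0.09, adjusted p = 0.841). Heat shock, glycolysis and proliferation genes had medians of 0.06, 0.01 and 0.01, with Dnajb1 (-0.19), Pfkfb3 (-0.41) and Cdt1 (-0.32) as examples. The 9 transcripts listed for RNA quality had a median of 0.03 and none had an unadjusted p under 0.05, among them the nuclear Neat1 (0.37, SE 0.36).

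**Figure D4:**
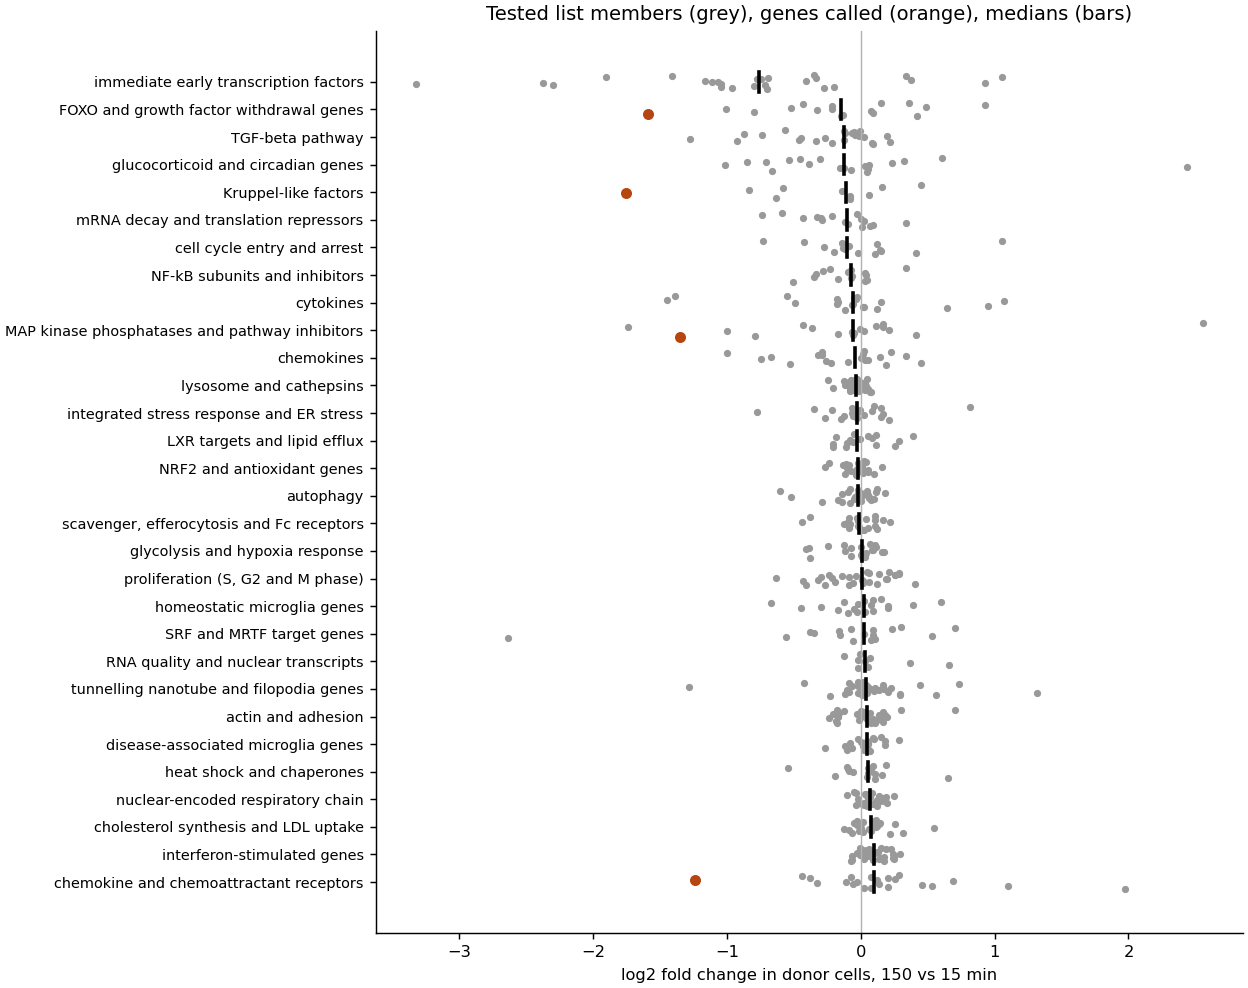
Log2 fold change at 150 against 15 min in donors (horizontal axis) of every tested member of 30 gene lists, with called genes in orange and list medians as black bars. The immediate early list has the lowest median, -0.76, and the other medians lie between -0.15 and 0.10.

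No gene was called higher. Zfp414, a zinc finger gene, had the smallest p among those higher in every pair, at 9.72, 11.1, 9.42 and 5.08 CPM and then at 14.3, 14.8, 14.2 and 11.8 CPM, without overlap (0.68, SE 0.15, adjusted p = 0.102). DESeq2 called it higher (adjusted p = 0.0291). Cnn2, an actin-binding calponin, was at 26.8, 14.2, 14.8 and 11.6 CPM against 34.9, 20.9, 18.7 and 20.5 CPM (0.53, SE 0.15, adjusted p = 0.426). Zyx of focal adhesions was higher in all 4 pairs as well (0.30, SE 0.13). F630028O10Rik, a noncoding RNA gene whose span holds Mir223 on the same strand, was at 46.2, 51.7, 32.8 and 11.02 CPM and then at 86.2, 96.5, 49.2 and 21.9 CPM (0.85, SE 0.24, adjusted p = 0.426). Gm14308, Gm14430 and Gm14434 carry identical counts and are uncertain, since reads of near-identical copies cannot be told apart (0.60, SE 0.17).

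Acceptor libraries of the same times allow the same interval to be read in cells that were given no aSyn. Their log2 fold changes of Fbxo32, Cxcr4 and Klf2 were -0.10 (SE 0.24), -0.10 (SE 0.22) and -0.22 (SE 0.34), lower in 2, 3 and 4 of 4 pairs. Between these times acceptor Cxcr4 was higher, at 146 ± 36.5 CPM at 30 min and 177 ± 37.4 CPM at 60 min, against 109 ± 22.5 CPM at 15 min and 102 ± 24.7 CPM at 150 min (SD, n = 4 each). From 60 to 150 min it was thus lower in acceptors too, in 4 of 4 experiments. Acceptor Fbxo32 was at 12.4 ± 8.93 CPM at 15 min, 14.5 ± 7.77 CPM at 60 min and 10.98 ± 4.03 CPM at 150 min. From 60 to 150 min acceptor Fbxo32 was lower in 3 of 4 experiments and acceptor Klf2 in 2 of 4. Dusp1 was at 362 ± 130.5 CPM in acceptors at 15 min and 161 ± 51.4 CPM at 150 min (SD, n = 4 each), lower in all 4 pairs and not called (-1.16, SE 0.25, adjusted p = 0.194). DESeq2 called it lower there (adjusted p = 0.00875, 0.0456% of genes called), as did the fit of the groups compared with the block (adjusted p = 4.99e-05). The difference between the populations, donors minus acceptors, was -1.49 (SE 0.34, adjusted p = 0.203) for Fbxo32 and -1.13 (SE 0.30, adjusted p = 0.439) for Cxcr4. For Klf2 it was -1.53 (SE 0.47, adjusted p = 0.726) and for Dusp1 -0.19 (SE 0.34, adjusted p = 1). None of the 4 passed the adjusted test of the difference, and neither did any other gene (0%) in edgeR. Donor and acceptor libraries came from the same co-cultures. Apart from the experiment number, the fit treated them as independent. At an unadjusted p under 0.05, 483 genes differed, with 1.99% of all genes more negative in donors, and DESeq2 called 10 genes, Fbxo32 among them. Without experiment 4, edgeR called Fbxo32, Wee1, Zc3h12a and Socs3, all more negative in donors.

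Wee1, a kinase that holds back mitosis, had the smallest adjusted p of the difference in the main edgeR fit, 0.112. In donors it was at 16.7, 10.3, 14.8 and 20.5 CPM at 15 min and at 11.3, 6.15, 8.73 and 11.5 CPM at 150 min, lower in all 4 pairs, with a log2 fold change of -0.73 (SE 0.19). In acceptors it was higher in all 4 pairs, 0.68 (SE 0.20). Skil had -0.45 in donors, lower in 4 of 4 pairs, and 0.86 in acceptors, higher in 4 of 4. Zc3h12a, a nuclease that degrades cytokine mRNAs, had -0.32 (lower in 3 of 4) and 0.79 (higher in 4 of 4). For Fosl2 (-1.11 and 1.35) and the angiogenic factor Vegfa (-1.38 and 0.83) the acceptors were higher in only 2 of 4 pairs, with 81.9 ± 96.9 and 22.96 ± 30.8 CPM at 150 min (SD, n = 4), so the sign in acceptors was not uniform. Bmt2, a methyltransferase linked to mTORC1, had 0.46 in donors (higher in 3 of 4 pairs) and -0.61 in acceptors (lower in 4 of 4). DESeq2 called the difference for Wee1, Skil, Bmt2 and Zc3h12a (adjusted p = 0.008, 0.0249, 0.0338 and 0.0396) but not for Fosl2 or Vegfa. Besides Wee1, the genes named in this comparison by their opposite signs were chosen after their values were seen.

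Adora2b, an adenosine receptor, was the 1 gene called in acceptors, where it rose by 2.91 on the log2 scale (SE 0.54, adjusted p = 0.0445, 0.00759% of the genes tested). That call was lost without the block, with limma-voom and without each experiment in turn. It was also lost when only the groups compared were fitted, with or without the block. In donors Adora2b was at 2.89, 4.44, 6.15 and 1.903 CPM and then at 1.76, 3.38, 7.29 and 8.98 CPM (0.46, SE 0.44, adjusted p = 1). In acceptors 349 genes (2.65%) had an unadjusted p under 0.05 with lower values, 4 of them in the immediate early list, whose median there was -0.12. In the test of the difference 23 of the 26 tested list members were more negative in donors, against 47.8% of all genes, and 6 of them had an unadjusted p under 0.05, against 1.99% of all.

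**Figure D5:**
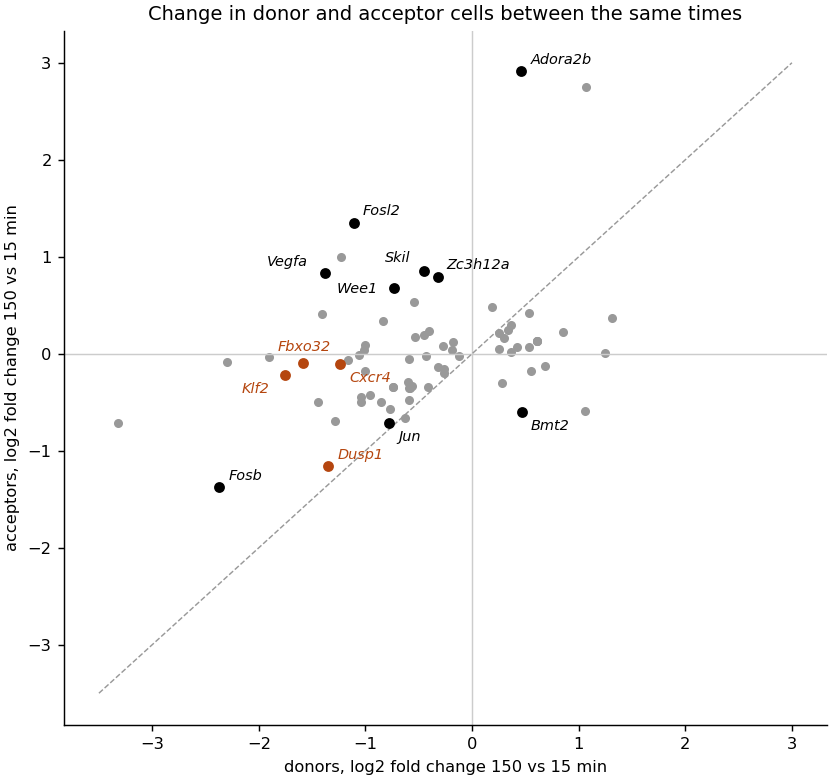
Log2 fold change at 150 against 15 min in acceptors (vertical axis) and donors (horizontal axis) of the 74 named genes with a mean of at least 2 CPM. The dashed line marks equal values, and Fbxo32, Cxcr4 and Klf2 (orange) lie near 0 in acceptors, whereas Dusp1 lies near the line.

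Donors at 300 against 30 min share no library with this comparison, though they carry the same experiment numbers and come from the same fit. There, 85 genes (0.645%) were called lower and 15 (0.114%) higher. All 4 genes were among the lower ones: the log2 fold change was -3.20 (SE 0.35) for Klf2, -2.01 (SE 0.25) for Fbxo32, -1.52 (SE 0.25) for Dusp1 and -1.32 (SE 0.22) for Cxcr4. They were also among the 12 genes called without the block. Of the 85 lower genes 79 had a negative log2 fold change at 150 against 15 min, 39 of them with an unadjusted p under 0.05, and 51 were lower in all 4 pairs. Over all genes tested these shares are 47.1%, 2.18% and 7.48%. Of the 15 higher genes 14 had a positive one, against 52.9% of all. The immediate early list had 9 calls, all lower, with a median of -1.18 over its 26 tested members. They include Fosb (-3.52), Nr4a1 (-3.22), Ier2 (-1.88) and Jun (-0.98). Without the block 2 of the 9 were called, among 12 calls in all 13169 genes tested. Adgre5, an adhesion receptor of leukocytes, and Tsc22d3 were called at 300 against 30 min (-1.23 and -1.42), while their values at 150 against 15 min were -0.18 and -0.45.

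No marker of another cell type was called in the main fit. The 8 astrocyte markers summed to 9.83 to 19.2 CPM at 15 min and 10.9 to 29.00 CPM at 150 min, and the sum was higher at 150 min in 3 of 4 pairs. Of them, Gja1 and Gfap had an unadjusted p under 0.05 with higher values, which held for 2.26% of all genes. Gja1 was at 0 to 0.0798 CPM against 0.246 to 1.31 CPM and Gfap at 0 to 1.35 CPM against 0 to 3.21 CPM. The 8 oligodendrocyte lineage markers summed to 109 to 207 CPM and 138 to 231.3 CPM. Most of that sum was Mbp (59.2 to 109 CPM) and Cnp (44.5 to 78.1 CPM), while Mog was at 0 to 0.669 CPM. Olig1, Olig2, Sox10 and Pdgfra of that lineage were higher at 150 min in all 4 pairs, which held for 8.51% of all genes, and of these Olig1 alone had an unadjusted p under 0.05. Olig1 was at 3.59, 0.282, 13.1 and 1.43 CPM and then at 8.701, 0.676, 25.6 and 4.89 CPM (1.24, SE 0.58, adjusted p = 1). It was called higher when only the groups compared were fitted with the block (1.26, adjusted p = 0.0395), a fit with 40 calls. The log2 fold changes of Olig2, Sox10 and Pdgfra were 0.95, 1.10 and 0.67. The median log2 fold change was 0.42 over the 8 markers of this lineage and 0.46 over the 8 astrocyte markers, 7 of which were positive, against 0.01 over all genes. Neuronal markers summed to 0.282 to 3.91 CPM and 1.004 to 7.85 CPM, endothelial ones to 58.02 to 82.5 and 54.2 to 90.3 CPM, and fibroblast and mural ones to 0.175 to 10.6 and 0.184 to 9.71 CPM. Those of neutrophils and lymphocytes did not exceed 7.08 and 0.240 CPM, and those of border macrophages, which cultured microglia share in part, were at 804 to 1001 and 774 to 1042 CPM. Of the latter, Ms4a7 was at 619 to 832 CPM, while Cd163 and Lyve1 did not exceed 0.502 CPM. The sum of the 12 microglial markers was 1982 to 7104 CPM at 15 min and 2283 to 6238 CPM at 150 min, lower at 150 min in 2 of 4 pairs. The part of other cells in the results was not tested.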

How the data were processed

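RNA of the sorted cells was made into QuantSeq 3' mRNA libraries and sequenced as single 50 bp reads, per the labels' protocols. The deposited table holds raw read counts for 16632 gene symbols in 54 libraries. A second deposited table holds a normalized signal, equal to the count divided by a size factor per library for 100% of its values within 0.05, and was used only for that check. The submitters' processing notes name STAR, Partek, DESeq2 and mm10; versions and settings are not given in the sources used here. Reads of 3' tags make levels of different genes comparable only roughly, and whether counting used strand is not given in the sources used here.

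From the counts, edgeR 4.0.16 (R 4.3.3, limma 3.58.1) was fitted over all 14 groups (52 units, same-numbered untreated libraries summed) with TMM scaling, a filter on low counts (filterByExpr, minimum count 10, leaving 13169 genes), the replicate number as a block and the quasi-likelihood F test. Values were adjusted by Benjamini-Hochberg over all genes tested and called at an adjusted p under 0.05. Differences within pairs use log2 CPM with a prior count of 2. The depth of the 8 libraries, 11429307 to 15537493 counts, puts 3 counts at 0.193 to 0.262 CPM. Deviations of same-numbered libraries from their group means correlated at r = 0.497 to 0.746 over genes, against a mean of -0.185 for other pairs, and the contrast is defined as paired, so the block is the main fit. The groups compared, the gene lists and the genes always reported were chosen with earlier results of these data known, so no pattern in them is independent support.

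The genes named are those called with the same sign in 4 pairs and a mean of at least 2 CPM (the 12 largest in each direction, filled up to 6 by p and then described as not called), up to 4 members of smallest p from lists with a called member, 1 from each other list, and Klf2, Cxcr4, Fos, Dusp1 and Nr4a1. Another 31 genes were chosen after their values were seen: Jun, Junb, Ier2, Ier3, Ier5, Btg2, Egr1, Egr3, Nr4a2, Fosl2, Myc, Bhlhe40, Skil, Ski, Sgk1, Tsc22d3, Nr1d1, Zfp36l2, Adora2b, Enah, Mdm2, Adgre5, Gja1, Gfap, Olig1, Tnf, Vegfa, Il6, Zc3h12a, Bmt2 and Socs3. Some genes that this rule names are not reported here. Genes named only as calls of an alternative fit are not in this list. Alternatives were the fit without the block, fits of fewer groups, DESeq2 1.42.0, limma-voom, other scalings and filters, Rn45s left out, and each experiment left out in turn. The scripts were tested on simulated counts.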

Additional observations from a re-analysis of the deposited data

Results flagged for a closer look

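Single libraries far from the other 3 of their group were looked for with Dixon's test at its 95% critical value in both times for the 80 named genes. Of 160 groups 20 were marked (12.5%), and 11 of the 20 are libraries of experiment 4. A chance rate of about 1 in 20 holds only for normally distributed values, and the test was run on untransformed CPM. Where the other libraries had no count, as for Spry4 and Gfap at 15 min, a single library with counts is always marked. The 12.5% therefore cannot be read as an excess over chance.

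In experiment 4, Il6, an inflammatory cytokine, was at 20.14 CPM at 15 min and 40.36 CPM at 150 min, against at most 0.492 CPM in the other experiments. Socs3 was at 233.01 and 197.3 CPM there, against 26.1 to 40.3 CPM and 7.7 to 15.4 CPM. Ier3 at 150 min was at 305.9 CPM against 32.3 to 72.99 CPM, and Irs2 at 15 min was at 39.18 CPM against 19.2 to 20.3 CPM. The astrocyte gene Gfap was at 1.348 and 3.211 CPM, against 0 and 0 to 0.481 CPM, and Gja1 at 150 min was at 1.314 CPM against 0.246 to 0.418 CPM. On the low side were Cxcr4 (128.3 CPM against 216 to 224 CPM) and Zyx (72.09 against 102 to 108 CPM), both at 15 min.

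In experiment 3, Fosl2 (91.63 CPM against 36.6 to 45.5 CPM), Vegfa (48.29 against 12.6 to 17.8 CPM), Enah (3.033 against 0.555 to 0.704 CPM) and Spry4 (0.2394 against 0 CPM) were high at 15 min, and Jun was low at 150 min (49.43 against 58.3 to 59.4 CPM). In experiment 2, Neat1 was high at 15 min (672.8 against 341 to 386 CPM) and Npc1 low at 150 min (109.8 against 153 to 161 CPM). In experiment 1, Ccr2 (6.358 against 0.881 to 1.35 CPM) and Cnn2 (34.89 against 18.8 to 20.9 CPM) were high at 150 min.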

How the results depend on the processing

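The number of genes called in donors at 150 against 15 min was 4. It was 1 without the replicate block (184 instead of 585 genes at an unadjusted p under 0.05), 40 when only the groups compared were fitted with the block and 0 without it, 51 with donor groups alone, 12 with DESeq2, and 0 to 13 with an experiment left out. It stayed at 4 with other scalings (RLE, upper quartile), with no filter or a minimum count of 30, with limma-voom and without Rn45s. Of 15 alternatives, the call was kept in 11 for Fbxo32 and Cxcr4 and in 10 for Dusp1 and Klf2, and none reversed a sign. In acceptors the count of 1 became 0 without the block, 6 with only the groups compared (0 without the block) and 6 with DESeq2. Adora2b was not among the 6 genes of the fit of only the groups compared. The count was 0 with limma-voom and 0 with any experiment left out. For the difference between donors and acceptors it was 0, 10 with DESeq2, and 0 to 4 with an experiment left out. For donors at 300 against 30 min the 100 calls became 12 without the block, 320 with only the groups compared (0 without the block), 672 with donor groups alone, 183 with DESeq2, and 17 to 221 with an experiment left out. Adora2b in donors (0.46) ranged from -0.23 to 0.76 with an experiment left out, the 1 reversal of sign among named genes, in the fit without experiment 4. Of the recomputed list medians 10 moved by more than the spread between pairs and 440 did not. Leaving out samples lowers the power; beyond that the cause of these shifts was not tested. Depth limits what can be said of genes under about 1 CPM, such as Egr3 at 150 min, Spry4 and Gja1.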
